A study of Mus musculus with 15 samples.

Results

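The miRNA mir-31 was followed through the left ventricle (LV) of wt, AGAT-/- and homoarginine-supplemented AGAT-/- mice. Every row of the deposited table whose name starts with mir-31- was taken, which gave 2 of 1836 rows, mir-31-5p and mir-31-3p, the arms of a single hairpin. Mir-31 was chosen by measured values, since its 5p arm was among the 12 miRNAs called between AGAT-/- and wt mice in these same libraries (false discovery rate, FDR, of at most 0.05 in edgeR), and for that contrast its values are given as a description without a test.

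MiRNAs are cut from hairpin-shaped transcripts, first in the nucleus by Drosha and then in the cytoplasm by Dicer, which leaves a short duplex of the 5p and the 3p arm. An Argonaute protein keeps one arm, the guide, and the other arm is mostly degraded. The bases just behind the start of the guide, the seed, pair with target mRNAs and reduce their translation or stability. In striated muscle, mir-31 is known as a regulator of Myf5 mRNA in satellite cells and of dystrophin mRNA, and as a miRNA that rises in dystrophic and regenerating muscle.

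MiRNA sequencing covered 15 mice on a C57BL/6J background, 5 per group, and each mouse gave a separate library. Wt mice carried the intact AGAT gene (arginine:glycine amidinotransferase, which makes homoarginine and the creatine precursor guanidinoacetate) and received no supplement. AGAT-/- mice were homozygous for the deleted gene, an inherited deletion present throughout the body, and received no supplement either. AGAT-/-hArg mice had the same deletion and were given homoarginine for 4 weeks from osmotic mini pumps. All 15 mice were littermates from heterozygous breeding, and their ages are not given in the labels. Libraries held between 365634 and 570492 reads. The wt and AGAT-/- libraries are labelled with lane 8 and the AGAT-/-hArg libraries with lane 2, so that homoarginine and sequencing lane cannot be told apart. Reads of the AGAT mRNA are not part of a miRNA table, and the deletion was not checked here. The tissue label was checked with muscle miRNAs. Mir-499-5p and mir-208a-5p, from introns of cardiac myosin genes, held 6290 and 673 reads over the 15 libraries, but the 3p rows of mir-1a, mir-133a and mir-208a, the arms heart muscle is known for, are listed at 0 in every library. In all, 672 of the 1836 rows are at 0 throughout.

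The sequences are shown because they set which reads can be counted on each arm. Mature sequences and the hairpin were taken from RefSeq (GRCm38.p6), where both rows had a match. In the mature sequences capitals mark the seed, bases 2 to 8 counted from the 5′ end, and in the hairpin they mark the 5p and then the 3p arm.
mir-31-5p: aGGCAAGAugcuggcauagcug
mir-31-3p: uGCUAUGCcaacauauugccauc
Mir31 hairpin: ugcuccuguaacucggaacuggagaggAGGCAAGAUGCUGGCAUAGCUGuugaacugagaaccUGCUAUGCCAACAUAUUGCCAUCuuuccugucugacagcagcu
The hairpin of 106 bases lies at chr4:88910557-88910662 on the minus strand of GRCm38. Its 5p arm covers chr4:88910614-88910635 and its 3p arm chr4:88910577-88910599. In the GENCODE M21 annotation the hairpin lies inside exon 3 of the 3 exons of AL805899.1, a long intergenic non-coding RNA on the same strand (chr4:88909855-88938521). The nearest protein-coding genes are Ifne, which encodes an epithelial type I interferon, 30.4 kb away, and Mtap, a methionine salvage enzyme, 226 kb away. The nearest annotated miRNA genes, Mir491 and Mir6402, are 788 kb and 2463 kb away and were not analysed here. In the structure of lowest predicted energy, 17 of the 22 bases of the 5p arm pair with the 3p arm, among them 6 of the 7 seed bases. No other mature mouse miRNA of the RefSeq table, which holds 1679 names, has the seed of either arm. The longest run of bases that another mature miRNA shares with an arm is 9 for mir-31-5p (mir-193a-5p and mir-1941-5p) and 8 for mir-31-3p (mir-6958-3p). Mir-31 has no near-identical copy in that table with which reads could be shared.

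Mir-31-5p was the arm that carried the reads. Over the 15 libraries it held 10273 reads against 259 of mir-31-3p, or 97.5% of all mir-31 reads. By mean level mir-31-5p ranked 35 and mir-31-3p 195 among the 647 rows with more than 10 reads in all. The row just above mir-31-5p was mir-674-3p at a mean of 1517 CPM (the count of a row per 1000000 reads, with library totals corrected by TMM for differences in composition), and the row just below was mir-101c-3p at 1458 CPM, with mir-31-5p at 1490 CPM. Such ranks compare rows of a sequencing table, in which ligation and mapping can favour some sequences over others. Mir-31-5p ranked 40 in wt, 30 in AGAT-/- and 31 in AGAT-/-hArg mice.

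The 5 wt mice, numbered 1 to 5, had 501, 430, 595, 492 and 478 reads of mir-31-5p, which correspond to 1097, 1007, 1246, 1247 and 1178 CPM. The AGAT-/- mice 6 to 10 had 673, 1076, 703, 816 and 657 reads, or 1622, 1868, 1921, 1700 and 1522 CPM. The AGAT-/-hArg mice 11 to 15 had 830, 1058, 588, 620 and 756 reads, or 1727, 1738, 1384, 1590 and 1507 CPM. Every mouse without AGAT, supplemented or not, lay above every wt mouse, whereas the AGAT-/- and AGAT-/-hArg mice overlapped over most of their range. The order of AGAT-/- above wt mice belongs to the contrast that chose mir-31, and nothing is read from it. All AGAT-/- mice lay above all wt mice for 14 of 562 miRNAs (2.49%), and all AGAT-/-hArg mice for 10 of 569 (1.76%). The share for both groups together was not counted. Mouse 13 was the lowest of the mice without AGAT and mouse 4 the highest of the wt mice.

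**Figure D1:**
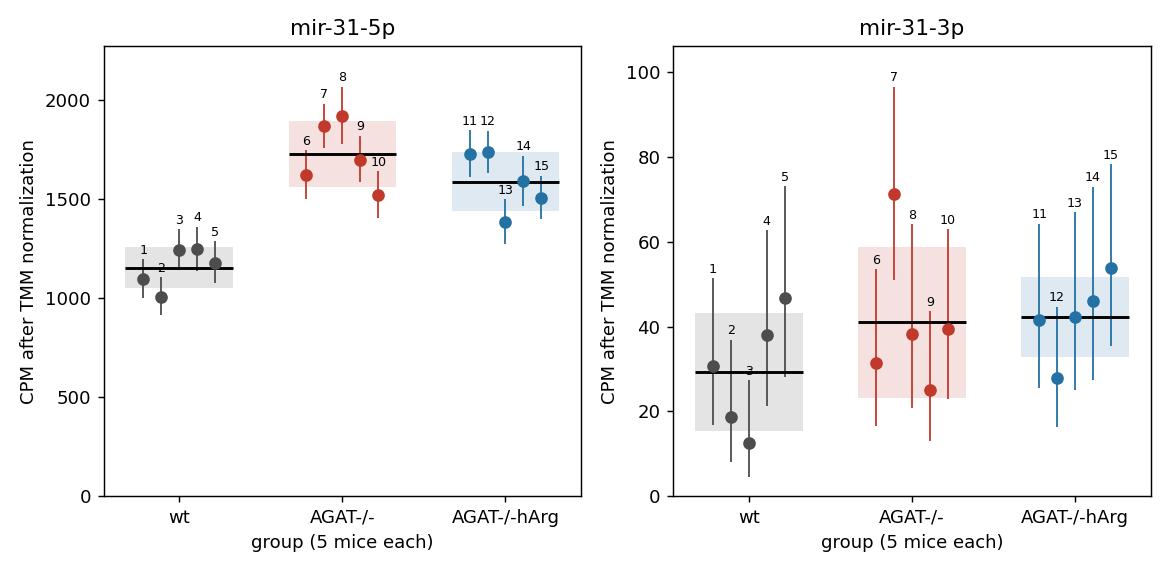
CPM of mir-31-5p (left) and mir-31-3p (right) in each of the 15 mice (points, labelled with the mouse number), by group on the x axis, with the exact Poisson 95% interval of the read count as a vertical line, the group mean as a black line and 1 SD as a shaded band. The wt mice lie at or below 1247 CPM for mir-31-5p and all others at or above 1384 CPM, while the groups overlap for mir-31-3p. The wt and AGAT-/- values of mir-31-5p belong to the contrast that chose mir-31.

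The group means of mir-31-5p were 1155 ± 103 CPM in wt, 1727 ± 167 CPM in AGAT-/- and 1589 ± 150 CPM in AGAT-/-hArg mice (SD, n = 5 each). The levels thus run from AGAT-/- through AGAT-/-hArg to wt mice, and the first of these neighbours did not differ beyond their spread. The coefficient of variation between mice of a group was 8.91% in wt, 9.65% in AGAT-/- and 9.43% in AGAT-/-hArg mice, against 4.49%, 3.62% and 3.66% that counting alone gives. Its biological coefficient of variation over the 15 libraries, as estimated by edgeR, was 12.1%. Of the 227 rows with a mean above 10 reads, whose median was 14.0%, 43 had a lower one. In LV tissue, fewer cells that express a miRNA and less of it per cell cannot be told apart.

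Between AGAT-/- and wt mice, the contrast that singled mir-31 out, mir-31-5p had a log2 fold change of 0.57 (SE 0.10), or 1.48-fold, with a 95% interval of 1.29 to 1.71. By adjusted p it stood in place 5 of the 12 called miRNAs, of 562 tested (2.14% called, 1.6% as higher). At the threshold the last miRNAs inside were mir-7688-5p (FDR 0.0240) and mir-1966-3p (FDR 0.0293), and the next outside were mir-883a-3p and mir-125b-2-3p (both FDR 0.0523, edgeR). For 14 of the 562 miRNAs (2.49%) all AGAT-/- mice lay above all wt mice. Nothing is read from these shares, since they come from the contrast that chose mir-31. With each mouse left out in turn the log2 fold change was between 0.52 and 0.67.

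The comparison of AGAT-/-hArg with wt mice brings in 5 libraries from outside the contrast that chose mir-31, against the same wt libraries. It asks whether the level of wt mice is also exceeded in AGAT-deficient mice that received homoarginine. In these wt libraries mir-31-5p had been picked for being low. The difference from them can therefore come out too large and its FDR too small. Mir-31-5p was 1.37-fold higher in AGAT-/-hArg mice, a log2 fold change of 0.46 (SE 0.10, 95% interval of the fold 1.20 to 1.58; FDR = 0.00764, edgeR's quasi-likelihood test with Benjamini-Hochberg adjustment over 569 miRNAs). All 5 AGAT-/-hArg mice lay above all 5 wt mice. The groups also differ in lane and supplement, and the parts of deletion, homoarginine and lane cannot be told apart. Of the 569 miRNAs 17 (2.99%) were called, 9 of them (1.58%) as higher (1 with the animal number as a covariate, 2 without wt mouse 5, 3 without wt mouse 3 or AGAT-/-hArg mouse 14 or 15), and for 10 (1.76%) the AGAT-/-hArg mice lay above the wt mice without overlap. With each mouse left out in turn the FDR was between 0.00529 and 0.0264, and the log2 fold change between 0.42 and 0.51. Once animal number entered the fit as a covariate, the value was 0.46 and was no longer called (FDR = 0.0510, edgeR). With total counts in place of TMM the value was 0.57, while the median of all tested miRNAs moved from 0.01 to 0.12. Relative to that median it was 0.44 with TMM and 0.45 with total counts.

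The labels give each mouse an animal number, and what it stands for is not stated. Numbers are on the whole lower in wt than in AGAT-/- mice, with AGAT-/-hArg mice between them. AGAT-/- mouse 6, at 1622 CPM of mir-31-5p, has a number between those of wt mice 1 and 2, which were at 1097 and 1007 CPM. AGAT-/-hArg mice 11 and 12, at 1727 and 1738 CPM, have numbers between those of wt mice 3 and 4, at 1246 and 1247 CPM. AGAT-/-hArg mouse 13, at 1384 CPM, follows directly on wt mouse 5, at 1178 CPM. AGAT-/- mice 7 to 10 and AGAT-/-hArg mice 13 to 15 have numbers above every wt mouse, so 7 of the 10 mice without AGAT lie outside the range of the wt numbers. Once this number entered the fit, the log2 fold change between AGAT-/- and wt mice, as a description, was 0.51 (SE 0.14). Mir-31-5p then fell outside the called miRNAs, so with this covariate it would not have been chosen. The values of AGAT-/- and wt mice listed here belong to the contrast that chose mir-31, and the part of animal number in the result cannot be told apart from that of the group where numbers do not overlap.

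**Figure D2:**
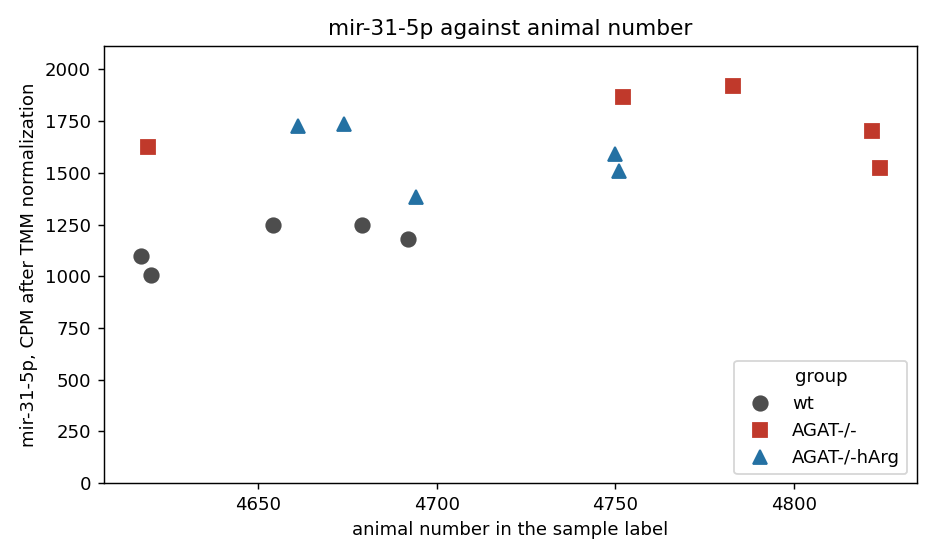
Mir-31-5p in CPM after TMM normalization (y axis, from 0) against the animal number in the sample label (x axis), 1 symbol per mouse and group. Wt mice lie at the lower numbers, and 4 of 5 AGAT-/- mice and 3 of 5 AGAT-/-hArg mice lie to the right of every wt mouse.

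The comparison of AGAT-/-hArg with AGAT-/- mice asks whether mir-31 differs between mice without AGAT that did and did not receive homoarginine. These groups also differ in sequencing lane, so the parts of homoarginine and lane cannot be told apart. The comparison uses the AGAT-/- libraries in which mir-31-5p had been picked for being high, so a fall from them can come out too large. The mean of mir-31-5p was 137 CPM lower in AGAT-/-hArg mice, or 0.925-fold (95% interval 0.804 to 1.06), a log2 fold change of -0.11 (SE 0.10). It was not called (FDR = 0.911, unadjusted p = 0.258, edgeR; FDR = 0.985 by DESeq2). Of 580 miRNAs 4 (0.69%) were called, 1 of them (0.172%) as higher, and neither mir-31 arm was among them. For 6 (1.03%) all AGAT-/-hArg mice lay above all AGAT-/- mice, which held for neither arm. Leaving out each mouse in turn gave log2 fold changes between -0.19 and -0.07, and the FDR was at least 0.675. With upper-quartile scaling the value was -0.00, while the median of all miRNAs rose to 0.13. Relative to the median of all miRNAs the value was -0.13 with TMM, with total counts and with upper-quartile scaling.

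**Figure D3:**
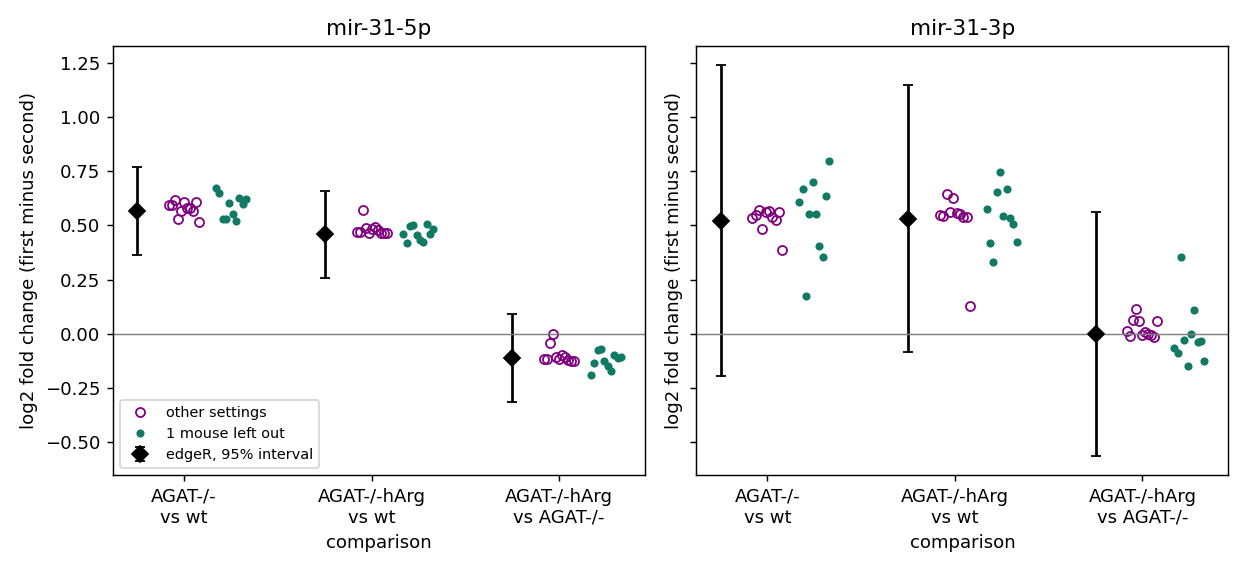
Log2 fold changes (y axis) of mir-31-5p (left) and mir-31-3p (right) in the 3 comparisons (x axis), as fitted by edgeR with the 95% interval (diamonds), under the other settings (open circles) and with 1 mouse left out (dots). For mir-31-5p both comparisons with wt mice stay between 0.42 and 0.67, and the values of mir-31-3p spread from -0.15 to 0.80.

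Mir-31-3p, the arm opposite the guide, rested on few reads. The wt mice 1 to 5 had 14, 8, 6, 15 and 19 reads, the AGAT-/- mice 6 to 10 had 13, 41, 14, 12 and 17, and the AGAT-/-hArg mice 11 to 15 had 20, 17, 18, 18 and 27. The means were 29.4 ± 13.9 CPM in wt, 41.0 ± 17.8 CPM in AGAT-/- and 42.4 ± 9.42 CPM in AGAT-/-hArg mice (SD, n = 5 each), and all groups overlapped. The coefficient of variation between mice was 47.5% in wt, 43.4% in AGAT-/- and 22.2% in AGAT-/-hArg mice, against 30.3%, 24.6% and 22.6% from counting alone. Of the 227 rows with a mean above 10 reads, 213 had a lower biological coefficient of variation. The order of the groups was not resolved for mir-31-3p with this spread and depth.

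The log2 fold change of mir-31-3p between AGAT-/- and wt mice was 0.52 (SE 0.34), given as a description. It rested in part on mouse 7, without which it was 0.17, and it was 0.35 without wt mouse 3 and 0.80 without wt mouse 5. Between AGAT-/-hArg and wt mice the value was 0.53 (SE 0.30, 95% interval -0.09 to 1.15) and did not pass the test (FDR = 0.490, edgeR). It was 0.33 without wt mouse 3, and 0.13 with the animal number as a covariate. Between AGAT-/-hArg and AGAT-/- mice it was -0.00 (SE 0.27, 95% interval -0.56 to 0.56; FDR = 0.997, edgeR). Without AGAT-/- mouse 7 that value was 0.35. In folds the interval runs from 0.676 to 1.48.

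The share of mir-31-5p among mir-31 reads compares the arms inside a library and does not depend on how libraries are scaled. In wt mice 1 to 5 it was 97.3%, 98.2%, 99.0%, 97.0% and 96.2%. In AGAT-/- mice 6 to 10 it was 98.1%, 96.3%, 98.0%, 98.6% and 97.5%, and in AGAT-/-hArg mice 11 to 15 it was 97.6%, 98.4%, 97.0%, 97.2% and 96.6%. The lowest, of mouse 5, had an exact 95% binomial interval of 94.1% to 97.7% and the highest, of mouse 3, one of 97.8% to 99.6%, so that wt mice spanned the range of all 15. Group means were 97.5% ± 1.09 in wt, 97.7% ± 0.857 in AGAT-/- and 97.4% ± 0.707 in AGAT-/-hArg mice (SD, n = 5 each). AGAT-/-hArg mice differed from AGAT-/- mice by -0.337 percentage points (exact permutation test, two-sided, p = 0.516) and from wt mice by -0.170 percentage points (exact permutation test, two-sided, p = 0.762), where 0.00794 is the smallest p this design allows. Neither difference was larger than the spread between mice. PCR reads are not independent molecules, and these intervals cover counting error only.

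**Figure D4:**
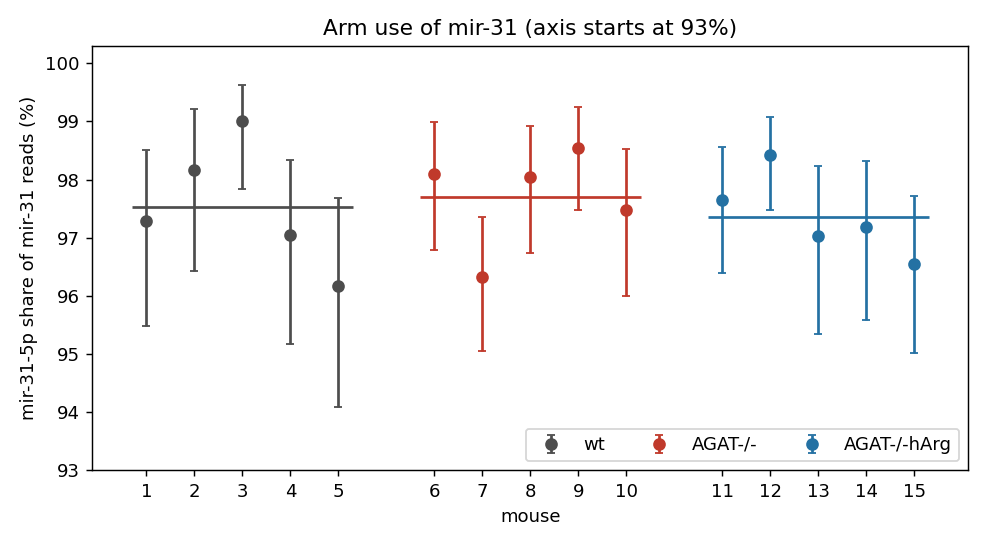
Share of mir-31-5p among all mir-31 reads in percent (y axis, starting at 93%) for each mouse (x axis), with exact 95% binomial intervals and the group mean as a line. The shares lie between 96.2% and 99.0%, and the range of the wt mice covers that of both other groups.

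The level of the arms across the 15 mice was set beside that of the other miRNAs with a mean above 10 reads. Pearson's r of log2 CPM with mir-31-5p was above 0.5 for 16 of 226 rows and below -0.5 for 17. Such values describe 15 mice that share 3 groups and 2 lanes, and no p is given. Mir-31-3p had an r of 0.43 and stood in place 23. Within groups, after each group was centred on its own mean, its r was 0.08.

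The 5 miRNAs most like mir-31-5p were mir-210-5p (r = 0.80), from the hypoxia-induced mir-210 hairpin, mir-499-5p (0.76), which is encoded in a cardiac myosin gene, mir-125b-2-3p (0.75), mir-7688-5p (0.72) and mir-24-2-5p (0.69). Mir-210-5p was at 270 ± 6.95 CPM in wt, 358 ± 41.9 CPM in AGAT-/- and 337 ± 22.8 CPM in AGAT-/-hArg mice (SD, n = 5 each). Mir-499-5p was at 752 ± 71.4, 976 ± 79.8 and 1012 ± 77.2 CPM in the same order. Each of the 5 had its lowest group mean in wt mice. Because mir-31-5p was chosen as higher in AGAT-/- than in wt mice, a high r with it favours such rows, and nothing is read from this order. Centred on the group means, their r with mir-31-5p fell to values between -0.02 and 0.29, so the likeness lay in the differences between groups and not in the mice within them. The 3 least like were mir-215-5p (r = -0.83), mir-5119-3p (-0.73) and mir-21a-5p (-0.69), a miRNA abundant in stressed and fibrotic myocardium. Mir-21a-5p was at 216 ± 10.1 CPM in wt, 174 ± 26.8 CPM in AGAT-/- and 160 ± 18.4 CPM in AGAT-/-hArg mice (SD, n = 5 each), with its highest mean in wt mice. The choice of mir-31-5p likewise favours such an order among the least like.

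**Figure D5:**
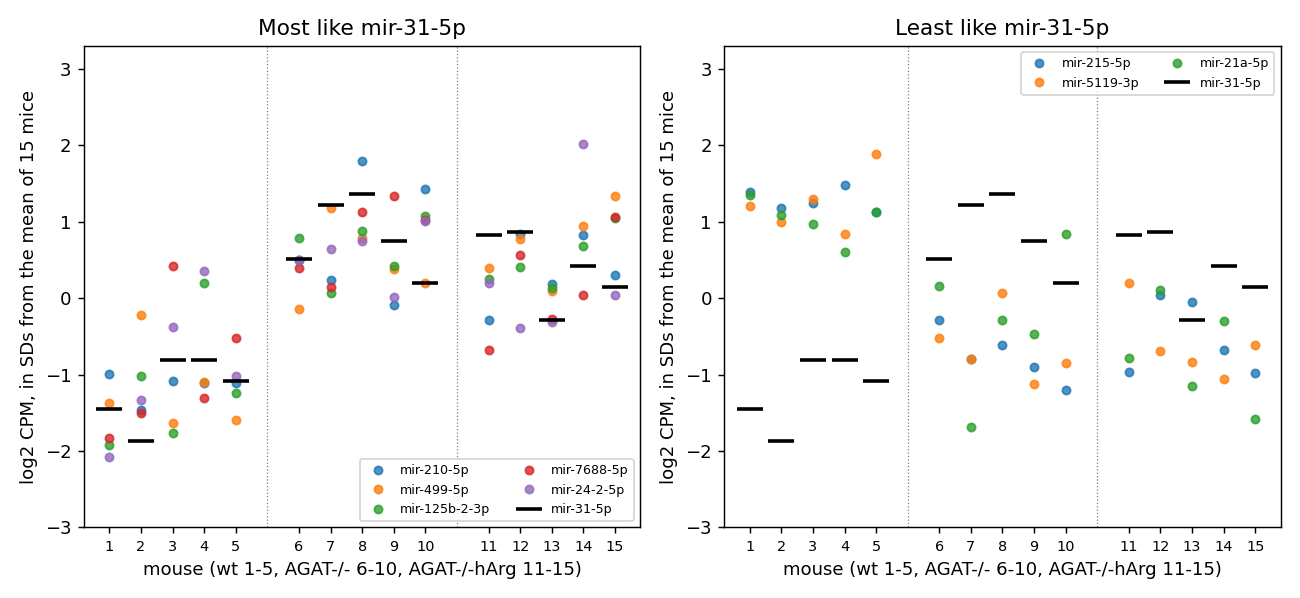
Log2 CPM, in SDs from the mean of the 15 mice (y axis), for mir-31-5p (black bars) and the 5 miRNAs most like it (left) or the 3 least like it (right, coloured points) in each mouse (x axis). With r between 0.69 and 0.80 the left-hand miRNAs are mostly low in wt mice 1 to 5, and with r between -0.83 and -0.69 the right-hand ones are high there.

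Other miRNAs linked to damaged, dystrophic or regenerating muscle were looked up by a list of 10 names (regeneration-linked mir-34c, mir-206, mir-335, mir-449 and mir-494, degeneration-linked mir-1, mir-29c and mir-135a, inflammation-linked mir-222 and mir-223). The table holds 20 rows for 7 of these names, and 9 of the rows are at 0 in every library. No row matched the names mir-206, mir-494 or mir-29c. In each of the 3 comparisons 8 rows had reads enough to be tested, and none was called by edgeR, DESeq2 or limma-voom. Mir-34c-5p, mir-335-5p, mir-222-3p and mir-223-3p held 0 reads over the 15 libraries and mir-135a-2-5p held 1. The lack of calls therefore says nothing of these arms. In the paper, mir-34c-5p and mir-135a-5p are among the miRNAs reported as lower in AGAT-/- than in wt mice, mir-135a also by qPCR. Those results could not be checked with the rows used here. At an unadjusted p under 0.05 in edgeR there was 1 of the 8 rows in each comparison, mir-1a-2-5p between AGAT-/- and wt mice and mir-34c-3p in both comparisons of AGAT-/-hArg mice. Over all tested miRNAs the same held for 10.7% between AGAT-/- and wt mice, 12.5% between AGAT-/-hArg and wt mice and 7.41% between AGAT-/-hArg and AGAT-/- mice. The median log2 fold change of the 8 rows was -0.29 between AGAT-/- and wt mice, against -0.04 over all 562 tested. It was -0.27 between AGAT-/-hArg and wt mice, against 0.01 over all 569, and -0.12 between AGAT-/-hArg and AGAT-/- mice, against 0.01 over all 580. These medians pool regeneration-, degeneration- and inflammation-linked names, which need not move in 1 direction, and no direction is read from them. Mir-34c-3p was at 15.0 ± 7.64, 10.9 ± 5.15 and 4.21 ± 3.47 CPM in wt, AGAT-/- and AGAT-/-hArg mice (SD, n = 5 each). This row rested on 67 reads over the 15 libraries, and its AGAT-/-hArg mean is below the CPM of 3 reads in any library. Mir-222-5p, the row of the inflammation-linked names with the most reads, was at 63.3, 63.1 and 58.2 CPM.

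Markers of the cell types that LV tissue can hold were summed beside mir-31-5p. Heart muscle rows (mir-1, mir-133, mir-208 and mir-499, 18 rows of which 9 are at 0) summed to between 1802 and 2115 CPM in wt, 1928 and 2498 in AGAT-/- and 2003 and 2388 in AGAT-/-hArg mice. Of their 9 rows tested between AGAT-/-hArg and wt mice, mir-499-5p was called, with a log2 fold change of 0.43 (FDR = 0.0129, edgeR), where 2.99% of all miRNAs were called. The median log2 fold change of these heart muscle rows was -0.04 between AGAT-/- and wt, 0.06 between AGAT-/-hArg and wt, and 0.09 between AGAT-/-hArg and AGAT-/- mice. Between AGAT-/- and wt mice edgeR called none of 8, with 2 at an unadjusted p under 0.05, while DESeq2 and limma-voom called 1 each. Over all 562 miRNAs edgeR called 2.14%, and 10.7% had an unadjusted p under 0.05. Smooth muscle rows (mir-143 and mir-145, 2 of 6 at 0) summed to between 9544 and 12008 CPM in wt, 10610 and 14088 in AGAT-/- and 9963 and 16893 in AGAT-/-hArg mice, almost all of it mir-145a-3p. Leukocyte rows (5 of 14 at 0) lay between 6311 and 7859, 5960 and 8246, and 6667 and 8003 CPM in the same order. Red blood cell rows (5 of 10 at 0, mir-451a-5p among them) lay between 6543 and 7937, 6412 and 8035, and 6417 and 8010 CPM. For fibroblasts only mir-199b-5p had reads (3 of 4 rows at 0), between 1070 and 1261, 945 and 1323, and 961 and 1234 CPM. Epithelial rows (4 of 8 at 0) lay between 115 and 245, 158 and 255, and 114 and 246 CPM, and endothelial rows, none of 4 at 0, between 12.7 and 29.3, 8.33 and 26.5, and 10.4 and 25.6 CPM. The endothelial rows rested on very few reads, 100 of mir-126a-3p, 12 each of mir-126b-3p and mir-126a-5p and 2 of mir-126b-5p over the 15 libraries. The groups overlapped for each of these sums. Outside heart muscle, none of these rows was called by edgeR, DESeq2 or limma-voom in any comparison. Among them mir-143-3p, mir-199b-3p, mir-144-3p, mir-142a-5p, mir-223-3p, mir-150-5p and mir-200a-3p held 0 reads, so the lack of calls says nothing of these arms. At an unadjusted p under 0.05 in edgeR there were mir-145a-3p and mir-145b-5p of 3 smooth muscle rows tested between AGAT-/-hArg and wt mice (12.5% over all miRNAs), and mir-486b-5p of red blood cells and mir-150-3p of leukocytes in both comparisons of AGAT-/-hArg mice, 1 of 5 and 1 of 7 rows tested. The median log2 fold changes of these other lists lay between -0.30 and 0.29 for AGAT-/- against wt, between -0.33 and 0.41 for AGAT-/-hArg against wt and between -0.13 and 0.28 for AGAT-/-hArg against AGAT-/- mice. The ends of the first range rest on 1 endothelial and 2 epithelial rows. Those of the second rest on 2 endothelial and 3 smooth muscle rows, and those of the third on 3 epithelial and 4 smooth muscle rows. The part of these markers in the level of mir-31-5p was not tested.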

How the data were processed

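The authors prepared small RNA libraries from total RNA of the LV with the TruSeq Small RNA kit, sequenced them on an Illumina instrument and counted reads against mouse entries of miRBase in the CLC Genomics Workbench. The miRBase release, CLC settings and the handling of reads that match several miRNAs are not given in the sources used here. The submitters' processing notes name GRCm38. The deposited values are counts of reads per mature miRNA, not normalized, from 1 library per mouse, and all 15 columns were used. Replicate libraries of a group differed by more than sampling noise (for 30 pairs the chi-square divided by its degrees of freedom was 2.53 to 16.8).

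Each pair of groups was fitted with edgeR 4.0.16 in R 4.3.3 (TMM, glmQLFit, glmQLFTest) over all miRNAs whose sum in the 10 libraries was above 10 reads, and an FDR of at most 0.05 (Benjamini-Hochberg) was counted. CPM per mouse were scaled by TMM over the 15 libraries, and log2 CPM used a prior count of 1. With the library totals, 3 reads correspond to between 5.26 and 8.20 CPM. Arm shares were tested with an exact permutation test (scipy 1.17.1, Python 3.11.15), and the hairpin was folded with RNAfold 2.7.2. The alternatives were DESeq2 1.42.0, limma-voom (limma 3.58.1), 3 other scalings, 3 other filters, all libraries in 1 fit, the 3 most abundant miRNAs left out, the animal number as a covariate, and leaving out each mouse. The fits were tested on simulated data.

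Named miRNAs are the mir-31 rows, the 5 most and 3 least like mir-31-5p by Pearson's r, the 5 most like it within groups, its neighbours in level, and rows of the listed pathway and cell type markers that were called or, up to 4 a list, held the most reads. Others are named after their values were seen, where a count needed it. Members, lists and rule were chosen with earlier results of these data known.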

Additional observations from a re-analysis of the deposited data

How the results depend on the processing

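Under the 11 alternatives, and also when single mice were dropped, mir-31-5p kept its direction in all 3 comparisons. For AGAT-/- against wt mice its log2 fold change, as a description, ranged from 0.51 to 0.62 over the alternatives. At the lowest, with the animal number as a covariate, mir-31-5p would not have been called and so not chosen. Between AGAT-/-hArg and wt mice it stayed called in 10 of 11 alternatives and was not with the animal number as a covariate (0.46). All alternatives reuse the wt libraries in which mir-31-5p had been picked for being low, so their FDR can likewise be too small. The value of mir-31-3p between AGAT-/-hArg and AGAT-/- mice, near 0, turned positive with DESeq2 (0.0105), total counts (0.0640), upper-quartile scaling (0.112), limma-voom (0.0582), more than 10 reads in every library (0.00870), filterByExpr (0.000218) and the animal number (0.0579), and ranged from -0.15 to 0.35 with each mouse left out, positive without AGAT-/- mouse 7 or AGAT-/-hArg mouse 12. The filter of more than 10 reads in every library left it untested in both comparisons with wt mice. The difference of the 5p share between AGAT-/-hArg and wt mice ranged from -0.509 to 0.197 percentage points with each mouse left out, turning positive without AGAT-/-hArg mouse 15 or wt mouse 3. MiRNAs called between AGAT-/-hArg and AGAT-/- mice numbered 4, but 8 with at least 1 read required and 2 with more than 10 reads in every library. Between AGAT-/-hArg and wt mice 17 were called, 28 with at least 1 read required, 10 with the animal number, and 10 to 20 when 1 mouse was dropped, the lowest counts being 10 without wt mouse 3 or AGAT-/-hArg mouse 15 and 11 without wt mouse 5. Of the 5 miRNAs most like mir-31-5p, 3 were shared by Spearman's rho and 0 after centring the groups. The cause of these changes was not tested. No paired analysis was possible because the labels give no litter or pair. Both the 6 to 41 reads per library and the spread between mice limit mir-31-3p.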

Other observations

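Within groups, after each group was centred on its own mean, a different set of miRNAs ran closest to mir-31-5p over the 15 mice. These were mir-133a-1-5p (Pearson's r = 0.77), mir-3084-1-3p (0.69), mir-133a-2-5p (0.68), let-7c-2-5p (0.63) and mir-144-5p (0.62), of 226 rows with a mean above 10 reads. The mir-133a rows, from a muscle miRNA with copies in the genome, held 3289 and 3305 reads in all, so that their reads may be shared and they count as 1 case. Mir-133a-1-5p was at 476 ± 51.4 CPM in wt, 466 ± 61.7 CPM in AGAT-/- and 495 ± 46.5 CPM in AGAT-/-hArg mice (SD, n = 5 each), and its r with mir-31-5p without centring was 0.32. Mir-3084-1-3p held between 7 and 19 reads per library, too few for its r to be read. With 10 of 226 rows above an r of 0.5 after centring, these values are given as a description, with no p.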
